A study of Mus musculus with 10 samples.

Results

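The 86 genes described here are the nuclear genes of oxidative phosphorylation, out of 55487 genes in the count table of a mouse liver study. They are the protein-coding genes whose names begin with Nduf followed by a, b, c, s or v and a digit, with Uqcr, with Cox4 to Cox8 and a letter, or with Atp5, together with Sdha to Sdhd, Cyc1 and Cycs, and with at least 10 counts summed over the 10 libraries. The name pattern found 89 genes, of which 86 passed that minimum. The member nearest to the minimum was Cox6a2, with 29 counts, and the 3 genes left out (Cox8c, Cox7b2 and a second identifier of Atp5o) had 0 counts in all libraries together. Of the 86 members, 36 belong to complex I, 4 to complex II, 9 to complex III, 1 is cytochrome c, 19 belong to complex IV and 17 to complex V. Ndufa4 and Ndufa4l2 were placed with complex IV, where the Ndufa4 protein resides despite its name, and the supercomplex assembly factor Cox7a2l and Cox5b-ps, which carries a pseudogene name but is annotated as protein coding, were counted there too. Genes of the same complexes under other names, such as Ndufab1, are not members.

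Oxidative phosphorylation takes place in the inner mitochondrial membrane. Complexes I and II pass electrons from NADH and succinate to coenzyme Q, complex III passes them on to cytochrome c, and complex IV hands them to oxygen, while complexes I, III and IV pump protons that complex V, the ATP synthase, uses to make ATP. In hepatocytes this chain supplies the energy for urea synthesis, gluconeogenesis and protein secretion and takes up the electrons released by fatty acid oxidation. Most subunits are encoded in the nucleus and imported, and a small set, including the proton-pumping core of complex I, comes from mitochondrial DNA. Several complex IV subunits exist as pairs of isoforms, a widespread one and one typical of muscle, heart, lung or testis.

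The study compared 5 liver libraries of mice that lack Arg2 in hepatocytes (LKO) with 5 of littermates whose Arg2 alleles are floxed, which the submitters treat as wild type (Flox). Arg2 encodes arginase 2, the mitochondrial form of the enzyme that turns arginine to ornithine. All mice were of the strain given as C57B/6J, were 22 months old, ate normal chow and were littermates housed together, and the deletion is the stated difference between them. RNA was taken from pieces of whole liver and enriched with oligo-dT. The sources used here do not give the Cre driver or the sex, nor say whether each library is a separate animal, so p-values measure only the spread between these libraries. Libraries are called by the numbers of their columns in the table.

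The libraries held 43331354 to 54951415 counts. Arg2 itself had 0, 0, 0, 4 and 6 counts in LKO libraries 1 to 5 and 0, 4, 0, 5 and 0 counts in Flox libraries 1 to 5. Counts this low in both groups do not check the deletion. All 10 hepatocyte markers were detected, and their summed level was higher in every LKO library, at 138951 to 167198 CPM, than in any Flox library, at 57923 to 130701 CPM. CPM is a count scaled to a library of 1000000 counts, with library sizes scaled by the trimmed mean of M-values (TMM) method. Of those 10 markers, 9 had the higher mean in LKO, and albumin alone averaged 108226 ± 8701 CPM in LKO and 70404 ± 23836 CPM in Flox (SD, n = 5 each). Albumin made up most of the mean sum, which was 146572 CPM in LKO and 101934 CPM in Flox. Every other marker of that list overlapped between the groups by itself. Hnf4a, the marker with the lower mean in LKO, averaged 546 ± 48.6 CPM in LKO and 591 ± 109 CPM in Flox. The 6 erythroid markers were all higher on average in LKO. Their sum did not overlap between the groups either, at 450 to 881 CPM in LKO and 224 to 398 CPM in Flox. The summed markers of the other cell types overlapped between the groups. All 6 T and NK cell markers had a lower fitted level in LKO, with a sum of 1.51, 3.19, 2.24, 2.49 and 2.53 CPM in LKO 1 to 5 and 2.49, 6.05, 9.61, 7.54 and 3.43 CPM in Flox 1 to 5. All 8 Kupffer cell and macrophage markers had one too, with sums of 53.8 to 448 CPM in LKO and 82.6 to 514 CPM in Flox. In bulk liver, fewer cells of a type and less RNA per cell cannot be told apart. The part of these markers in the results below was not tested.

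No nuclear gene of oxidative phosphorylation differed between LKO and Flox livers after adjustment over all genes. The values of most members were slightly higher in LKO, by a median of 1.08-fold, and every member overlapped between the groups. Of the 86 members, 82 had enough counts for edgeR's quasi-likelihood test. The 4 others were the muscle, lung or testis isoforms Cox4i2, Cox6a2, Cox6b2 and Cox8b. With Benjamini-Hochberg adjustment over 15894 genes and a threshold of 0.05, edgeR called 0 of the 82 members, and 0.0% of all genes. The smallest adjusted p of a member was 0.652. DESeq2 called 0 of the 79 members to which it gave an adjusted p, where it called 11 of 6598 genes (0.167%), and limma-voom called 0 of 82. At an unadjusted p under 0.05, edgeR counted 2 of the 82 members (2.44%), Ndufs1 and Ndufc2, against 1193 of all genes tested (7.51%). Both had higher values in LKO, a direction that held for 504 of all genes at that p (3.17%), and no member had a lower value at it, against 689 of all genes (4.33%). DESeq2 counted 2 of 86 members at an unadjusted p under 0.05, against 7.09% of all genes, and limma-voom 1 of 82, against 6.42%.

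The direction was shared more widely than the size of any difference. Of the 82 tested members, 65 (79.3%) had a log2 fold change above 0, LKO over Flox, against 7698 of 15894 genes (48.4%). Among the 3777 genes within the members' range of level, from its 5th to its 95th percentile, 2010 (53.2%) were above 0. The median log2 fold change was 0.12 over the members and -0.01 over all genes tested. Single members ran from -0.18 (Atp5e) to 0.42 (Cox7a1), with a median standard error (SE), worked back from the test statistic, of 0.13. No member had all LKO libraries above or all below the Flox libraries, whereas 85 of all genes (0.535%) were higher and 59 (0.371%) lower in LKO without overlap. Members of a chain vary together from liver to liver, as the values by library show, so their 82 directions are not 82 separate observations.

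**Figure D1:**
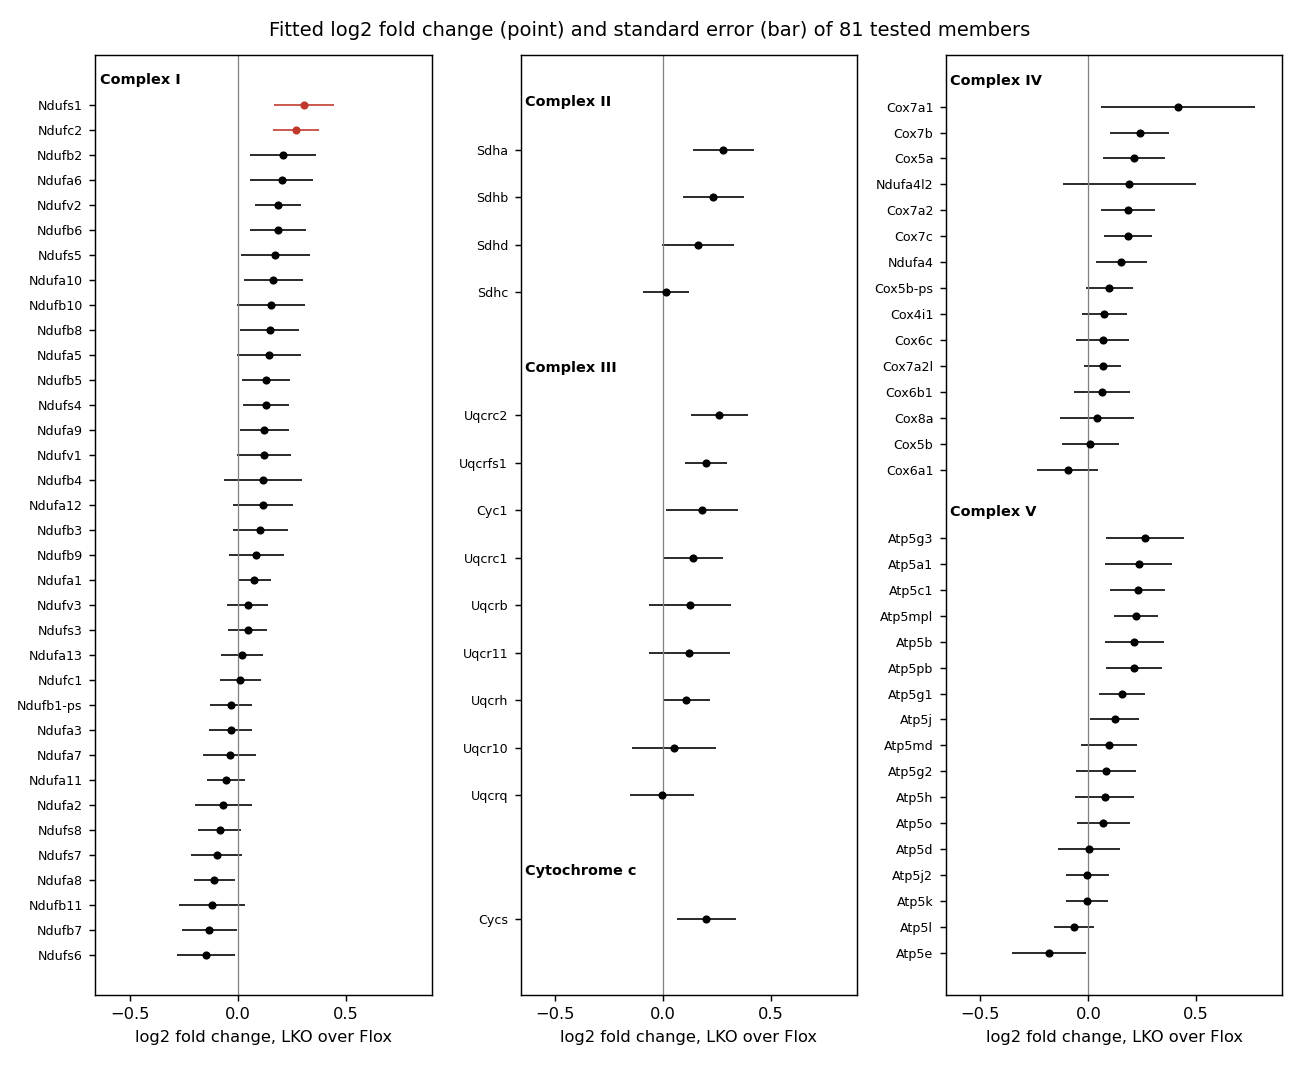
Log2 fold change, LKO over Flox (x axis), of 81 of the 82 tested members with 1 SE on each side (bars), sorted within each complex; the 2 members in red had an unadjusted p under 0.05. Most points lie right of 0, from -0.18 for Atp5e to 0.42 for Cox7a1, and none passed the adjusted threshold.

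Libraries within a group differed more than the groups did. Summed over all members, the level was 14526, 12712, 11963, 11887 and 14149 CPM in LKO libraries 1 to 5 and 13765, 11740, 10437, 10806 and 13331 CPM in Flox libraries 1 to 5. The group means were 13048 ± 1228 CPM in LKO and 12016 ± 1485 CPM in Flox (SD, n = 5 each), a ratio of 1.09. LKO 1 and LKO 5 were the highest libraries, Flox 1 and Flox 5 came next, and Flox 3 was the lowest, so the groups overlapped. Members made up 1.17 to 1.4% of all counts in LKO libraries and 1.06 to 1.36% in Flox libraries.

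The same libraries stood high or low for most members. LKO 1 was the highest of the 10 libraries for 30 of the 82 tested members, LKO 5 for 16 and Flox 1 for 15. Flox 3 was the lowest for 39, Flox 4 for 14, and Flox 2 and LKO 4 for 10 each. On the log2 scale, the median deviation of the members from their own mean over the 10 libraries was 0.21, 0.01, -0.08, -0.06 and 0.16 in LKO 1 to 5. It was 0.12, -0.10, -0.24, -0.17 and 0.09 in Flox 1 to 5. The median over all genes stayed between -0.01 and 0.02 in every library.

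**Figure D2:**
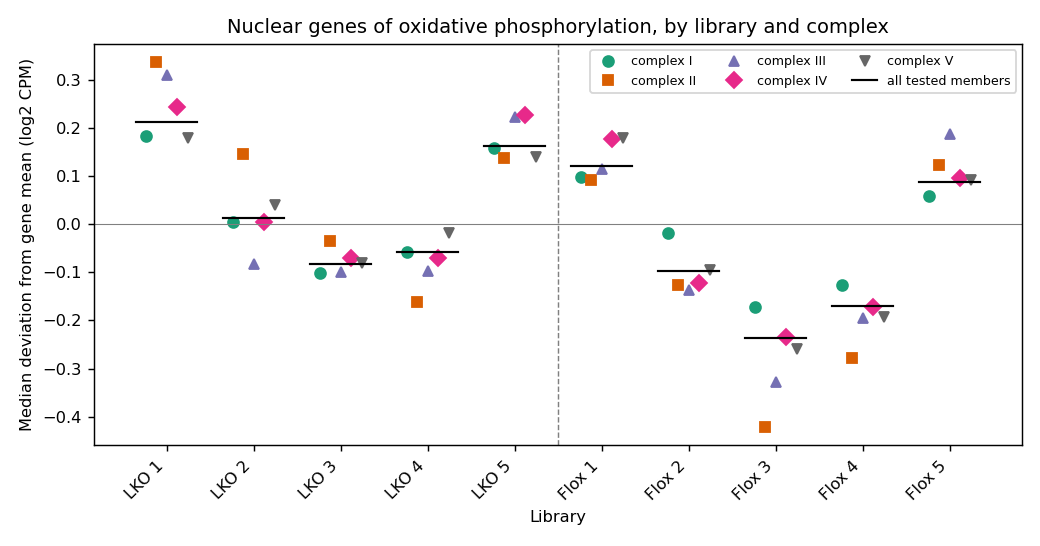
Median deviation of the members of each complex from their own mean over the 10 libraries (y axis, log2 CPM) for each library (x axis), with a line at the median over all tested members. LKO 1, LKO 5, Flox 1 and Flox 5 lie above 0 for all 5 complexes, and LKO 3, LKO 4, Flox 2, Flox 3 and Flox 4 lie below it for all 5.

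Other measures also differed between libraries of a group. The summed level of 12 acute phase genes, which the liver induces in inflammation and of which none had the higher fitted level in LKO, was 10517, 21782, 16206, 13147 and 12578 CPM in LKO 1 to 5 and 14408, 63513, 96970, 31968 and 10340 CPM in Flox 1 to 5. Flox 2, Flox 3 and Flox 4 thus had the highest acute phase sums and were among the libraries with the lowest member levels. Cidea, a lipid droplet protein that was on the list of brown adipocyte markers, had 116, 13.5, 4.0, 8.94 and 69.4 CPM in LKO 1 to 5 and 78.6, 0.445, 2.10, 0.0349 and 69.4 CPM in Flox 1 to 5. Its 4 high libraries were the 4 with the highest member levels. That list, with 2 of its 3 genes detected, summed to 4.10 to 116 CPM in LKO and 0.0349 to 78.6 CPM in Flox. Ucp1, the defining gene of brown adipocytes, had 0 counts in all 10 libraries, and Adipoq averaged 0.0876 CPM in LKO and 0.0313 CPM in Flox. The part of these genes in the members' levels was not tested.

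Flox 2 and Flox 3 had the highest acute phase sums and also low member levels, with median deviations of -0.10 and -0.24. Leaving out Flox libraries this low lowers the median log2 fold change whatever made them low. The part of the acute phase genes was not tested. Without Flox 2 and Flox 3, the members' median log2 fold change was 0.05. Of 83 tested members, 56 were above 0, and 0 had an unadjusted p under 0.05, against 3.12% of all genes. By complex, 22 of 36 members were then above 0 in complex I, 3 of 4 in II, 6 of 9 in III, 11 of 16 in IV and 13 of 17 in V. The median was 0.07 without Flox 3 alone and 0.07 without Flox 4 alone. The count at that p was 0 without Flox 3, Flox 4, LKO 1 or LKO 4, and it was 1 without LKO 2 or LKO 5. In these fits the share of all genes was 3.55% to 7.84%. The count was 8 without Flox 1 or Flox 5, which is 9.76% of members. The share of all genes was then 10.4% without Flox 1 and 11.7% without Flox 5.

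Complex I oxidises NADH and is the largest of the complexes. Of its 36 nuclear members, all tested, 25 had higher and 11 had lower values in LKO, with a median log2 fold change of 0.10. The 7 core subunits, which carry the redox centres, had a median of 0.10, and so did the 29 accessory subunits. The summed level was 3235 ± 310 CPM in LKO and 3098 ± 277 CPM in Flox, with overlapping libraries.

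Ndufs1 (ENSMUSG00000025968, chromosome 1, 63143596 to 63176833, minus strand, GRCm38), the iron-sulphur subunit of the NADH-oxidising module, had the largest difference in complex I. It had 99.5, 92.5, 77.7, 87.0 and 88.1 CPM in LKO 1 to 5 and 79.8, 80.8, 54.6, 57.6 and 86.5 CPM in Flox 1 to 5. Flox 3 and Flox 4 were far below the rest, while the 3 other Flox libraries lay within the LKO range and LKO 3 below all 3 of them. The means were 89.0 ± 8.0 CPM in LKO and 71.9 ± 14.7 CPM in Flox, and the log2 fold change of 0.31 ± 0.14 (SE) had an unadjusted p of 0.0451 and an adjusted p of 0.652 in edgeR's quasi-likelihood test.

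Ndufc2 (ENSMUSG00000030647, chromosome 7, 97400003 to 97407802, plus strand, GRCm38), an accessory subunit of the membrane arm, had the smallest unadjusted p of the 82 tested members. Its levels were 55.5, 50.4, 42.4, 53.4 and 50.1 CPM in LKO 1 to 5 and 45, 40.9, 35.8, 38.1 and 48.7 CPM in Flox 1 to 5. LKO 3 was the only LKO library below any Flox library, and it lay below Flox 1 and Flox 5. The log2 fold change was 0.27 ± 0.11 (SE), with an unadjusted p of 0.0252 and an adjusted p of 0.652 in edgeR's quasi-likelihood test.

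Other catalytic subunits of complex I were closer between the groups. Ndufv2, which holds an iron-sulphur cluster beside the flavin, averaged 106 ± 8.6 CPM in LKO and 93.2 ± 11.8 CPM in Flox (log2 fold change 0.19 ± 0.11). Ndufv1, which binds NADH and the flavin, averaged 142 ± 18.9 CPM in LKO and 131 ± 19.2 CPM in Flox. The difference was within 1 SD of the Flox libraries for Ndufv1 and slightly beyond it for Ndufv2.

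The members of complex I with lower values in LKO were also within the spread of the libraries. Ndufs6, a zinc-binding accessory subunit, averaged 83.5 ± 11.7 CPM in LKO and 92.5 ± 16.7 CPM in Flox (log2 fold change -0.15 ± 0.14). Ndufb7 and Ndufa8, accessory subunits with cysteine motifs that face the intermembrane space, had log2 fold changes of -0.13 ± 0.13 and -0.11 ± 0.10. Ndufb2 stood apart by level, at 1.21 CPM per kilobase of exon, the lowest of complex I.

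Complex II, succinate dehydrogenase, links the citric acid cycle to coenzyme Q and is encoded wholly in the nucleus. Its 4 members all had higher values in LKO, with a median log2 fold change of 0.20, although Sdhc, at 0.01, turned below 0 when libraries were scaled by their totals or adjusted for GC content. The summed level was 1111 ± 106 CPM in LKO and 963 ± 151 CPM in Flox. Sdha, the flavoprotein that oxidises succinate, had 597, 536, 469, 523 and 527 CPM in LKO 1 to 5 and 531, 418, 358, 356 and 521 CPM in Flox 1 to 5. Flox 1 and Flox 5 lay within the LKO range, and the other 3 Flox libraries lay below every LKO library. The log2 fold change of Sdha was 0.28 ± 0.14 (SE), and its adjusted p in edgeR's quasi-likelihood test was 0.652.

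Sdhb, the iron-sulphur subunit, had 307, 273, 251, 209 and 259 CPM in LKO 1 to 5 and 259, 227, 176, 185 and 258 CPM in Flox 1 to 5 (log2 fold change 0.23 ± 0.14). Here LKO 4 was the low LKO library, beneath 3 of the Flox libraries. The membrane anchors Sdhc and Sdhd, which hold the haem and the coenzyme Q site, had a median log2 fold change of 0.09, and Sdhd averaged 135 ± 25.6 CPM in LKO and 121 ± 26.5 CPM in Flox.

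Complex III takes electrons from coenzyme Q to cytochrome c. Of its 9 members, 8 had higher values in LKO, with a median log2 fold change of 0.13. The 4 core members had a median of 0.19 and the 5 accessory members one of 0.11. Uqcrfs1, the Rieske iron-sulphur protein, had 152, 138, 140, 143 and 149 CPM in LKO 1 to 5 and 118, 127, 114, 117 and 153 CPM in Flox 1 to 5. Flox 5 was above every LKO library, and the 4 other Flox libraries were below all of them. The means were 144 ± 5.8 CPM in LKO and 126 ± 15.9 CPM in Flox, with a log2 fold change of 0.20 ± 0.10 (SE) and an adjusted p of 0.652 in edgeR's quasi-likelihood test.

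Uqcrc2, a core protein of the matrix side, had 174, 137, 143, 141 and 155 CPM in LKO 1 to 5 and 140, 124, 100, 106 and 156 CPM in Flox 1 to 5 (log2 fold change 0.26 ± 0.13). Its partner Uqcrc1 averaged 327 ± 42.4 CPM in LKO and 297 ± 52.0 CPM in Flox, and Cyc1, the haem subunit that reduces cytochrome c, averaged 216 ± 46.3 CPM in LKO and 191 ± 36.2 CPM in Flox. Both had wide overlap. Uqcrq, an accessory subunit bound near cytochrome b, was level, at 366 ± 76.7 CPM in LKO and 367 ± 37.1 CPM in Flox.

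Cytochrome c, the small haem protein that shuttles electrons from complex III to complex IV and also takes part in apoptosis, is encoded in somatic cells by Cycs. It had 72.3, 63.1, 50.9, 65.1 and 59.2 CPM in LKO 1 to 5 and 71.0, 51.2, 44.4, 46.7 and 57.2 CPM in Flox 1 to 5. LKO 1 and Flox 1 were the high libraries of both groups, which overlapped. The log2 fold change was 0.20 ± 0.14 (SE).

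**Figure D3:**
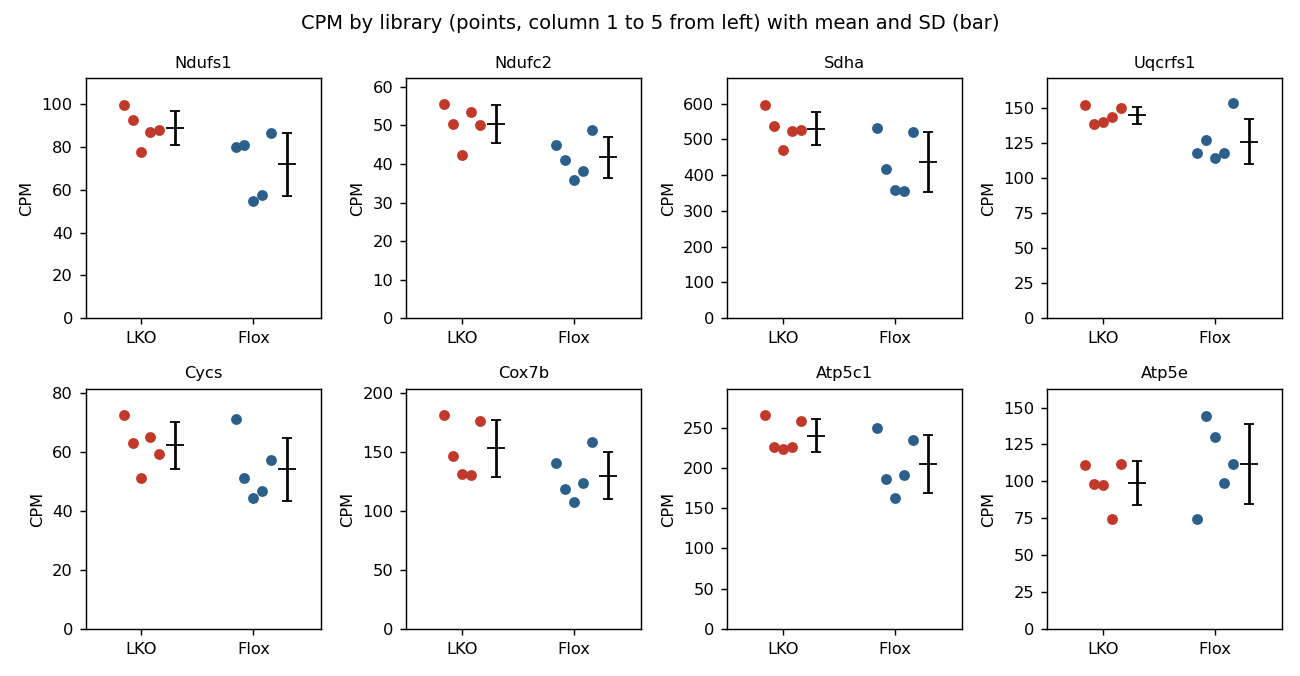
CPM (y axis, from 0) of 8 members in LKO and Flox livers (x axis), with libraries as points in column order from left to right and the mean with SD of 5 libraries as bars. In Ndufs1, Sdha and Atp5c1 the Flox libraries 3 and 4 are among the low points, and for Atp5e the LKO points reach from 74.7 to 112 CPM within a Flox range of 74.6 to 144 CPM.

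Complex IV, cytochrome c oxidase, reduces oxygen to water. Of its 19 nuclear members, 15 were tested, and 14 of these had higher values in LKO, with a median log2 fold change of 0.10. The 11 general subunits, present in most tissues, had a median of 0.07. Cox7b, a small subunit of the membrane part, had 181, 147, 132, 131 and 176 CPM in LKO 1 to 5 and 141, 119, 108, 124 and 159 CPM in Flox 1 to 5 (log2 fold change 0.24 ± 0.14). The groups overlapped through Flox 1 and Flox 5. Cox4i1, the general form of the regulatory subunit IV, averaged 391 ± 39.6 CPM in LKO and 371 ± 23.0 CPM in Flox, and Cox5a, a matrix-side subunit, averaged 132 ± 19 CPM in LKO and 114 ± 20.4 CPM in Flox. Cox6a1 was the only tested member of complex IV with a lower value in LKO, at 290 ± 56.8 CPM in LKO and 310 ± 30.7 CPM in Flox (log2 fold change -0.10 ± 0.14).

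The isoform pairs of complex IV were dominated by the general form in both groups. Per kilobase of exon, Cox4i1 was 1714-fold above Cox4i2, the form typical of lung. Cox6a1 was 5032-fold above Cox6a2 and Cox8a 613-fold above Cox8b, both typical of heart and skeletal muscle. Cox6b1 was 2641-fold above Cox6b2, the testis form. The gap was narrower for Ndufa4 over Ndufa4l2, a paralogue induced by hypoxia in other cells, at 127-fold, and it was narrowest for Cox7a2 over Cox7a1, at 50.5-fold. With the length of the principal coding transcript in place of all exons, the same ratios were 3230 for Cox4i1, 6186 for Cox6a1, 689 for Cox8a, 1597 for Cox6b1, 245 for Ndufa4 and 53.1 for Cox7a2.

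The low isoforms rest on few counts. Cox6a2 had 2, 2, 2, 3 and 8 counts in LKO 1 to 5 and 4, 0, 2, 4 and 2 counts in Flox 1 to 5. Cox4i2 had 18, 8, 4, 0 and 4 counts in LKO and 6, 4, 6, 0 and 4 in Flox, and Cox6b2 had 0, 2, 8, 7 and 4 in LKO and 4, 13, 5, 11 and 0 in Flox. With 0 reads counted, as many as 3 could have been missed, which is 0.0546 to 0.0692 CPM depending on the library. Two-sided exact permutation tests of their shares of the isoform pair gave unadjusted p of 0.286 for Cox6a2, 0.492 for Cox4i2 and 0.413 for Cox6b2 (n = 5 each). These limits cover counting error only. Cox8b had 15, 4, 16, 8 and 8 counts in LKO and 10, 4, 6, 1 and 14 counts in Flox, and its groups overlapped widely too. Ndufa4l2 averaged 1.42 ± 0.31 CPM in LKO and 1.24 ± 0.48 CPM in Flox. Markers of striated muscle, all 6 with a count in some library, summed to 0.127 to 0.423 CPM in LKO and 0.175 to 0.324 CPM in Flox. None of the 6 had enough counts for edgeR's test, and Myh1 had 0 CPM in every LKO library.

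Cox7a1, the heart and muscle form of subunit VIIa, had 648 counts over the 10 libraries, against 664 for Ndufa4l2, and the largest log2 fold change of the 82 tested members. It had 1.02, 1.23, 1.61, 1.69 and 1.89 CPM in LKO 1 to 5 and 0.954, 1.09, 0.349, 1.26 and 1.90 CPM in Flox 1 to 5. Flox 3 was low and Flox 5 was about as high as the highest LKO library. The log2 fold change was 0.42 ± 0.36 (SE), with an adjusted p of 0.748 in edgeR's quasi-likelihood test. Its share of the Cox7a1 and Cox7a2 sum, per kilobase, was 2.11 ± 0.52% in LKO and 1.75 ± 0.81% in Flox. Over 7 such isoform shares, a two-sided exact permutation test of the 5 against 5 libraries gave no adjusted p below 0.689, and the smallest p the design allows is 0.00794.

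**Figure D4:**
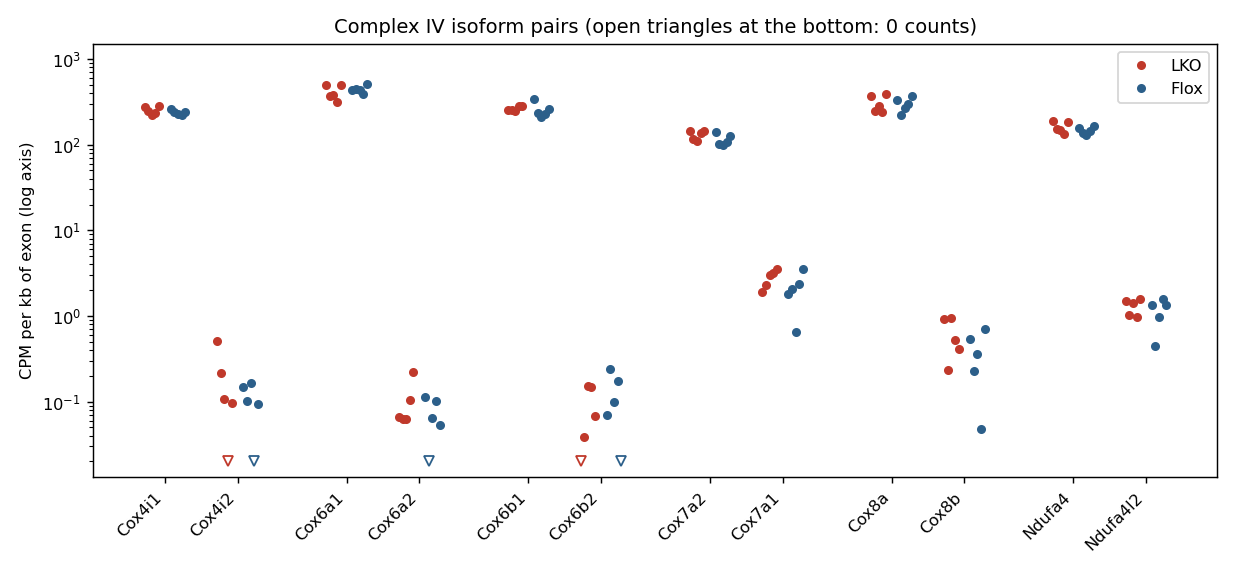
Level per kilobase of exon (y axis, CPM per kilobase, log axis) of 6 isoform pairs of complex IV in each LKO and Flox library (points), with libraries at 0 counts as open triangles at the bottom. The general forms lie far above the second isoforms in both groups, and Cox7a1, 50.5-fold below Cox7a2, is the highest of the second isoforms in every library but Flox 3.

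CG dinucleotides are frequent in the promoters of widely expressed genes. For subunits VIIa and VIII, the promoters of the general and muscle forms differ in them. The 250 bases before the start of both forms of subunits VIIa and VIII are shown for that reason, from RefSeq on GRCm38.p6, 5′ to 3′ on the strand of the gene, with each CG in capitals. Cox7a1 lies at chr7:30183921-30184170 on the plus strand, Cox7a2 at chr9:79759854-79760103, Cox8a at chr19:7217617-7217866 and Cox8b at chr7:140900447-140900696, all 3 on the minus strand.
Cox7a1: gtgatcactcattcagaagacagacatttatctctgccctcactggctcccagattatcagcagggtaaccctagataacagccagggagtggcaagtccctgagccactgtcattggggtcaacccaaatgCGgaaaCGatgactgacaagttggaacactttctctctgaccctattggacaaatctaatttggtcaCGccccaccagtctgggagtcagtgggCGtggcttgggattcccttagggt
Cox7a2: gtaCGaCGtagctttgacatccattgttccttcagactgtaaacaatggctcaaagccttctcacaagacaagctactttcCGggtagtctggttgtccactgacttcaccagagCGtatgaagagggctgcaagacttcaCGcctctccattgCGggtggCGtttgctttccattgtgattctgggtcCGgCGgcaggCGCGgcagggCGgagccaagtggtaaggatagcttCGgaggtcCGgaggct
Cox8a: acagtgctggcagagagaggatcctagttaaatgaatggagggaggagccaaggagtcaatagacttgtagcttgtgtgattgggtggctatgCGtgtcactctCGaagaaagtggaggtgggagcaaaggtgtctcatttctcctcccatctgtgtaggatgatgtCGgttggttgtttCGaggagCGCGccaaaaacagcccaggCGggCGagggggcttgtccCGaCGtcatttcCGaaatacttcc
Cox8b: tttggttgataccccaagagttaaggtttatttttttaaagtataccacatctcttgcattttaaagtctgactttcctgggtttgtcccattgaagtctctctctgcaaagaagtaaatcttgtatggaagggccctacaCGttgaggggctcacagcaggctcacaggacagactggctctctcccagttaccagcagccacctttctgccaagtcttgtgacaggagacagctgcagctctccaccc
Cox7a1 has 4 CG dinucleotides in this window and Cox8b has 1, whereas their widespread partners Cox7a2 and Cox8a have 14 and 11. The median is 14 over 73 windows of the 68 members with a RefSeq window, and 6 over 32851 windows of all genes. Low counts are not confined to muscle forms, since Ndufc2 has 4 and Uqcr10 and Cox7b have 5 each.

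Complex V makes ATP in its F1 head, driven by a ring of c subunits in the membrane. Of its 17 members, 13 had higher values in LKO, with a median log2 fold change of 0.10. Summed, they reached 4421 ± 334 CPM in LKO and 3954 ± 598 CPM in Flox, the largest sum of the 5 complexes. The medians by subgroup were 0.21 for the 5 members of the F1 head, 0.16 for the 3 c-ring genes, 0.10 for the 4 of the peripheral stalk and -0.00 for the 5 small membrane subunits.

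Atp5a1, the alpha subunit, had the highest CPM of all members, at 1189, 1099, 1006, 973 and 1128 CPM in LKO 1 to 5 and 1129, 922, 698, 755 and 1088 CPM in Flox 1 to 5. Atp5b, the catalytic beta subunit, had 1140, 998, 1006, 954 and 1046 CPM in LKO and 1008, 897, 705, 763 and 1063 CPM in Flox. In both genes, Flox 2, Flox 3 and Flox 4 lay below every LKO library while Flox 1 and Flox 5 lay among them. Their log2 fold changes were 0.23 ± 0.15 for Atp5a1 and 0.21 ± 0.14 for Atp5b. Atp5c1, the gamma subunit that forms the rotating shaft, averaged 240 ± 20.1 CPM in LKO and 205 ± 35.9 CPM in Flox (log2 fold change 0.23 ± 0.13).

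Atp5e, the epsilon subunit at the foot of that shaft, had a lower mean in LKO. It had 111, 98.5, 97.8, 74.7 and 112 CPM in LKO 1 to 5 and 74.6, 144, 130, 99.0 and 112 CPM in Flox 1 to 5. Flox 2 and Flox 3, which were low for most members, were its highest libraries, and Flox 1 its lowest. The log2 fold change of -0.18 ± 0.17 (SE) was the lowest of the 82 tested members and turned to 0.05 without Flox 2 and Flox 3.

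Atp5mpl, a small proteolipid of the membrane part, had the smallest unadjusted p of complex V, 0.0539, with 44.1, 41.1, 35.2, 41.9 and 42.9 CPM in LKO 1 to 5 and 35.3, 37.1, 29.9, 32.2 and 41.5 CPM in Flox 1 to 5. Its log2 fold change was 0.22 ± 0.10 (SE). Atp5pb, the b subunit of the peripheral stalk, averaged 299 ± 24.8 CPM in LKO and 258 ± 46.3 CPM in Flox. Atp5k and Atp5l, the e and g subunits of the membrane part, were close to equal, at log2 fold changes of -0.00 ± 0.10 and -0.07 ± 0.09.

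The c ring is built from identical mature proteins encoded by Atp5g1, Atp5g2 and Atp5g3, which differ in their import sequences. Per kilobase of exon, Atp5g3 gave 69.2 ± 4.1% of the 3-gene sum in LKO and 66.7 ± 5.0% in Flox. Atp5g1 gave 16.1 ± 2.6% in LKO and 16.9 ± 2.6% in Flox, and Atp5g2 gave 14.7 ± 2.0% in LKO and 16.4 ± 2.5% in Flox. The share of Atp5g1 differed between the groups by less than the spread of the libraries. It depends on the length used, since without length scaling Atp5g1 holds 30.9% of the counts in LKO and 32.4% in Flox. Per kilobase of the principal coding transcript it gives 6.47% in LKO and 6.90% in Flox, and Atp5g3 gives 80.5% in LKO and 78.4% in Flox.

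Levels per kilobase of exon spanned a wide range across members. The highest over all libraries were Cox6a1 at 427, Atp5a1 at 319 and Uqcr11 at 318 CPM per kilobase. The lowest were Cox6a2 at 0.0848, Cox6b2 at 0.0986 and Cox4i2 at 0.143 CPM per kilobase. Cycs, at 17.1 CPM per kilobase, was low among the general members, and its ranking depends on its long annotated exons.

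Members with GC-rich transcripts had somewhat smaller fold changes. Across the 81 tested members with a coding transcript in the GENCODE M21 annotation, Spearman's rho between the log2 fold change and the GC content was -0.39. It was -0.30 across 12961 genes, so the members shared a pattern of the whole table. Across genes of 1 set of libraries these are descriptions, since genes are not independent replicates and all points share the 10 libraries. Of the 21 members with the lowest GC content, 20 had higher values in LKO, with a median log2 fold change of 0.15. Of the 21 with the highest, 16 did, with a median of 0.07.

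The libraries leaned on GC content in opposite directions. Across the same 81 members, Pearson's r between a member's deviation and its GC content was -0.06, -0.46, 0.16, -0.45 and 0.33 in LKO 1 to 5 and -0.01, -0.10, 0.17, 0.36 and 0.30 in Flox 1 to 5. A pair of accessory subunits of complex III, chosen after their values were seen, shows it within a single complex. Uqcrb, at 42.2% GC, had 123, 172, 108, 155 and 102 CPM in LKO 1 to 5 and 165, 137, 98.4, 93.7 and 110 CPM in Flox 1 to 5. Uqcr10, at 55.5% GC, had 142, 90.3, 96.7, 85.5 and 152 CPM in LKO 1 to 5 and 123, 92.7, 83.6, 107 and 141 CPM in Flox 1 to 5. LKO 2 and LKO 4 were high for Uqcrb and low for Uqcr10, and LKO 5 was the reverse. With offsets adjusted for GC content in each library, an alternative chosen after seeing the data, the members' median log2 fold change was 0.12, with 64 of 82 above 0.

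**Figure D5:**
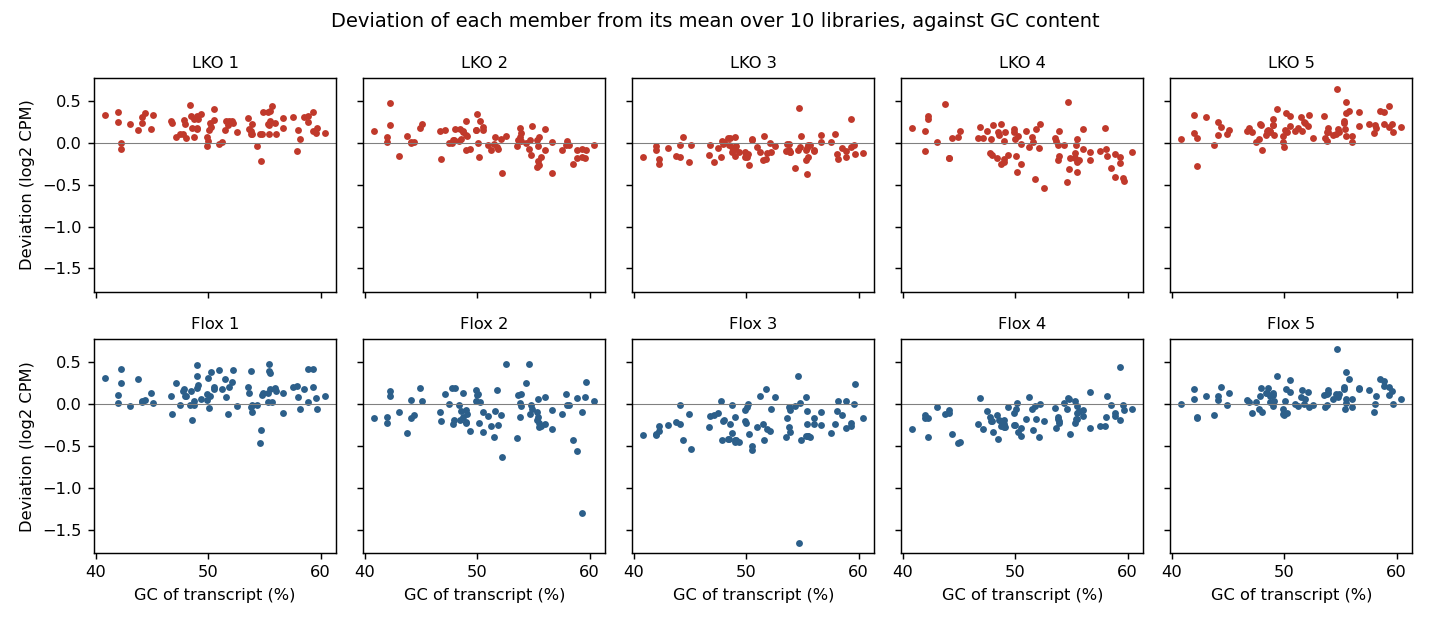
Deviation of each of 81 members from its mean over the 10 libraries (y axis, log2 CPM) against the GC content of its coding transcript (x axis, percent), with LKO libraries in the upper and Flox libraries in the lower panels. The points slope down in LKO 2 and LKO 4 (r of -0.46 and -0.45) and up in LKO 5 and Flox 4 (0.33 and 0.36).

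Many promoters of the chain are known to bind nuclear respiratory factor 1 (NRF1). Its motif (GCGC, any base, then TGCGC), sought on both strands in the 250 bases before the gene start, was in 14 of 73 member windows (19.2%), which belong to 13 genes, and in 3.74% of 32851 windows of all genes. The ETS motif CCGGAAGT, bound by the GABP factor, was in 4.11% of member windows and 2.88% of all windows. The TATA motif TATAAA was in 9.59% of member windows and 12.4% of all windows. A match is no more than a run of letters, and it overlaps with the CG content of these windows. Among the 13 members with the NRF1 motif, 8 had higher values in LKO, with a median log2 fold change of 0.08. Among the 53 tested members with a window and no such motif, 44 did, with a median of 0.12.

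Windows of 3 members with the NRF1 motif are shown, since they hold 1, 2 and 3 copies and belong to complexes V, IV and II. The motif is in capitals, 5′ to 3′ on the minus strand of GRCm38.p6, which is the strand of all 3 genes, with sequence from RefSeq. Atp5c1 lies at chr2:10080433-10080682, Cox6a1 at chr5:115348959-115349208 and Sdha at chr13:74350241-74350490.
Atp5c1: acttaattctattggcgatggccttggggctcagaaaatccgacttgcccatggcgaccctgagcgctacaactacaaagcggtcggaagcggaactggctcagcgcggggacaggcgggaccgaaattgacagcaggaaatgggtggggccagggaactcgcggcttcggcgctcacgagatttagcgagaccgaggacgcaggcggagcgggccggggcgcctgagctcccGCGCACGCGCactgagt
Cox6a1: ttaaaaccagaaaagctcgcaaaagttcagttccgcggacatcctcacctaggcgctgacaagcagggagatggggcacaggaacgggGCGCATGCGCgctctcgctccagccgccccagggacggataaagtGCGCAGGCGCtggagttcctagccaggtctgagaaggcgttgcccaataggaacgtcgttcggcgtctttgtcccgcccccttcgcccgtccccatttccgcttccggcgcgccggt
Sdha: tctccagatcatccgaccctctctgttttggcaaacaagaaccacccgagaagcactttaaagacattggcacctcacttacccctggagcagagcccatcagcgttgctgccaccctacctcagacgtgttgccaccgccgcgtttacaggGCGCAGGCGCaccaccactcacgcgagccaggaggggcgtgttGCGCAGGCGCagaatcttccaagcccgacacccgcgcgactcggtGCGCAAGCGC
These 3 members had log2 fold changes of 0.23 for Atp5c1, -0.10 for Cox6a1 and 0.28 for Sdha, so members with the motif stood on both sides of 0.

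Genes around the chain were examined in 13 lists of 152 symbols, of which 151 were found. Of the 144 non-members tested, edgeR's quasi-likelihood test called 0 after adjustment, and 3 higher and 1 lower had an unadjusted p under 0.05, against 3.17% higher and 4.33% lower of all genes tested. All 13 subunits encoded by mitochondrial DNA had higher values in LKO, with a median log2 fold change of 0.26, but mt-Co2 turned below 0 with library totals, and with GC-adjusted offsets 10 of 13 were above 0, with a median of 0.08. Without Flox 2 and Flox 3 these were 4 of 13, with a median of -0.04. With 1 library left out, the median was 0.17 (12 of 13 higher) without LKO 1, 0.06 (10 of 13) without LKO 4, 0.50 (13 of 13) without Flox 1 and 0.10 (11 of 13) without Flox 2. The subunit mt-Atp8 averaged 28.3 ± 11 CPM in LKO and 21.6 ± 6.5 CPM in Flox. All 18 genes of the citric acid cycle, which feeds NADH and succinate to the chain, also had higher values, with a median of 0.19, except that Fh1 and Idh3a turned below 0 with library totals or GC-adjusted offsets. Without Flox 2 and Flox 3, 15 of 18 were above 0, with a median of 0.08. Pdhb, a subunit of pyruvate dehydrogenase, averaged 106 ± 9.5 CPM in LKO and 85.2 ± 21.0 CPM in Flox (log2 fold change 0.31 ± 0.16).

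Assembly factors, which build the complexes without remaining in them, were near 0. Of the tested ones, 8 of 17 had higher values for complex I, 2 of 4 for complex II, 4 of 7 for complex III, 10 of 20 for complex IV and 3 of 5 for complex V. Their medians were -0.01, 0.08, 0.05, 0.00 and 0.05. With library totals, 4 of 17 were higher for complex I and 4 of 20 for complex IV, with medians of -0.05 and -0.03. With GC-adjusted offsets, 3 of 7 were higher for complex III and 4 of 5 for complex V. Genes of coenzyme Q synthesis were split too, with 7 of 13 higher and a median of 0.00, and Coq3, a methyltransferase of that pathway, averaged 11.8 ± 0.98 CPM in LKO and 13.6 ± 1.1 CPM in Flox. Of 8 genes of cristae and supercomplexes, 6 had higher values, with a median of 0.15, among them Opa1, the inner membrane fusion protein, at 85.5 ± 6.8 CPM in LKO and 72.8 ± 12.3 CPM in Flox.

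Gabpa is the DNA-binding subunit of the GABP factor that acts on many of these promoters. It was the only one of the 26 named genes of these lists whose groups did not overlap. Of all genes, 0.535% had that pattern in this direction. The 26 were picked by the smallest unadjusted p in each list, so that share is not a like comparison for them. Gabpa had 34.2, 35.4, 33.8, 37.0 and 33.2 CPM in LKO 1 to 5 and 30.4, 30.0, 25, 25.9 and 30.4 CPM in Flox 1 to 5. Every LKO library was above every Flox library. The log2 fold change was 0.29 ± 0.09 (SE), with an unadjusted p of 0.00474 and an adjusted p of 0.652 in edgeR's quasi-likelihood test. Gabpa overlaps the member Atp5j at their starts, on opposite strands, and strandedness is not given. How reads of that stretch were counted is thus not known. Over the 21 regulators of mitochondrial biogenesis, 13 had higher values in LKO, with a median of 0.11.

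Among the other routes into coenzyme Q, 7 of 9 genes had higher values, with a median of 0.07. Etfa, a subunit of the flavoprotein that collects electrons from fatty acid oxidation, averaged 265 ± 30.4 CPM in LKO and 213 ± 41.5 CPM in Flox (log2 fold change 0.31 ± 0.14). Of 6 carriers and porins, 5 had higher values, with a median of 0.17, and Vdac2, an outer membrane porin, averaged 69.3 ± 5.8 CPM in LKO and 59.5 ± 6.6 CPM in Flox. The 3 tested uncoupling genes all had lower values in LKO under each scaling tried, with a median of -0.53. Of the 3, Slc25a27 turned above 0 without LKO 1, without LKO 3 or without Flox 2. Ucp2, a carrier expressed in macrophages as well as in hepatocytes, had 17.3, 33.4, 20.3, 18.4 and 32.9 CPM in LKO 1 to 5 and 27.3, 21.6, 50.4, 53.9 and 28.9 CPM in Flox 1 to 5. Flox 3 and Flox 4, the libraries lowest for the members, were the highest for Ucp2, and the other libraries of both groups overlapped.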

How the data were processed

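RNA of 5 LKO and 5 Flox livers was measured by sequencing. The deposited values are counts of reads per Ensembl gene, whole numbers without normalization, in 1 table with 1 column per library, per the file headers. Per the submitters' processing notes, the tools included STAR 2.5.1a and featureCounts 1.4.6-p5 of Subread, after bcl2fastq, and the build was GRCm38. The sources used here do not give strandedness or how multi-mapping reads were handled. Reads could therefore be shared with the 15 pseudogenes named after members, which held 20807 counts together. Of 55774 lines, 287 repeats of an identifier were dropped, and every remaining line named a gene. LKO columns are numbered 1 to 5 where the titles run from 6 to 10, so columns were tied to groups and not to titles.

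Genes passing edgeR's filterByExpr (15894) were scaled by TMM (factors 0.963 to 1.04) and compared with the quasi-likelihood F test (edgeR 4.0.16, R 4.3.3), with Benjamini-Hochberg adjustment and a threshold of 0.05. The fit was also run on simulated data. The changed genes there had larger folds than any tested member, so that run does not cover differences as small as the members' ones. The SE of an edgeR log2 fold change was its absolute value divided by the square root of its F statistic. Log2 CPM used a prior count of 2. Exact permutation tests were run in scipy 1.17.1. Gene positions, exon lengths and GC content came from GENCODE M21 (GRCm38), and promoter windows from RefSeq, which matched 68 of 86 members. DESeq2 1.42.0, limma 3.58.1, other scalings, filters, lengths and libraries left out were the alternatives. Named members were the catalytic subunits, the isoforms, up to 3 higher and 3 lower members per complex with the smallest unadjusted p, and the 3 highest and 3 lowest per kilobase; each other list gave up to 2 genes. The values of 1 named member are not reported here. Members and lists were chosen with earlier results of these data known.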

Additional observations from a re-analysis of the deposited data

Results flagged for a closer look

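Within a group of 5 libraries, a single library stood apart from the other 4 in 7 of the 166 sets of values examined, by Dixon's test at its 95% critical value of 0.71. Chance alone flags about 1 set in 20. Ndufs6, a complex I accessory subunit, had 121 CPM in Flox 1 and 80.7 to 90.3 CPM in the other Flox libraries. Ndufa8, also an accessory subunit of complex I, had 105 CPM in Flox 2 and 87.3 to 92.1 CPM in the other Flox libraries. Both genes had lower means in LKO, and in both the library that stood apart was a high Flox library. Cox6a2, the muscle form of a complex IV subunit, had 0.150 CPM in LKO 5, which is 8 counts, and 0.0422 to 0.0704 CPM in the other LKO libraries. The share of Atp5g1 among the c-ring genes was 20.6% in LKO 4 and 13.8 to 15.7% in the other LKO libraries. Outside the members, mt-Nd3, a complex I subunit encoded in the mitochondria, had 48.0 CPM in LKO 4 and 17.1 to 24.8 CPM in the other LKO libraries. Pdhb had 89.4 CPM in LKO 3 and 108 to 113 CPM in the other LKO libraries. Vdac2 had 79.3 CPM in LKO 5 and 64.4 to 68.0 CPM in the other LKO libraries.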

How the results depend on the processing

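No alternative called a member past the adjusted threshold, and only DESeq2 called any gene at all (11). The number of members with an unadjusted p under 0.05, 2 as reported, was 3 with DESeq2 size factors, 1 with library totals and 1 with limma-voom. It was 0 without Flox 2 and 3, and 0 to 8 with a library left out in turn. Of all genes tested, 3.12% to 11.7% had such a p in these settings. The replicate block, which pairs columns of the same number, gave 12 (14.6% of members), against 9.66% of all genes. The labels do not say whether the numbers pair the libraries. Same-numbered LKO and Flox libraries correlated at 0.354, 0.0891, 0.0736, 0.0988 and 0.288, and 4 of 10 libraries correlated best with their own number. These values do not decide it, since the level to be had without pairing was not worked out. With a library left out in turn, the median log2 fold change was 0.07 to 0.17 over all members, 0.06 to 0.15 in complex I, 0.12 to 0.29 in II, 0.08 to 0.20 in III, 0.05 to 0.17 in IV and 0.07 to 0.17 in V. Library totals moved the median of all genes to -0.05 and that of the members to 0.08. Of the 82 tested members, 62 kept their direction without Flox 2 and 3, 75 with limma-voom and 75 with GC-adjusted offsets. With a library left out in turn, 74 to 80 of the 82 did. The named genes and shares were picked in part for a small unadjusted p. Of 1279 alternative values of these 73, 1250 kept their direction and 29 turned. Without Flox 2 and 3 the log2 fold change was 0.051 for Atp5e, -0.022 for Atp5g2, 0.0101 for Atp5k, -0.0496 for Cox6b1, -0.12 for Cox8a, -0.13 for Ndufa4l2, -0.022 for Sdhd and -0.089 for Uqcr11, and the share differed by -0.125 percentage points for Ndufa4l2 and 0.251 for Atp5g1. With limma-voom it was -0.0013 for Atp5g2 and -0.044 for Cox8a, and with GC-adjusted offsets 0.042 for Atp5k. With a library left out in turn, it ranged from -0.0043 to 0.17 for Atp5g2, -0.053 to 0.039 for Atp5k, -0.049 to 0.13 for Cox8a, -0.013 to 0.34 for Ndufa4l2 and -0.10 to 0.074 for Uqcrq, and the share of Ndufa4l2 from -0.0837 to 0.105 percentage points. The cause was not tested. With 5 libraries a group, the median SE of a single member was 0.13, close to the members' median log2 fold change of 0.12. No error was estimated for that median itself.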
